A study of Mus musculus with 7 samples.

Results

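The 10 genes described here, Klrb1c, Klrb1b, Clec2i, Klrb1f, Clec2d, Klre1, Klrd1, Klrk1, Klrc1 and Klra7, are C-type lectin-like genes of the natural killer (NK) gene complex on mouse chromosome 6, the chromosome that also carries Lag3. They were taken by symbol from the 27998 genes that all 7 libraries list, and they were chosen by their position beside Lag3 together with the Lag3KO minus WT differences already seen for some of them in these same libraries, so those differences are a description, and where the fits over all genes call or do not call a member, that is no independent evidence. The libraries are droplet single-cell 3′ RNA-seq (10x Genomics 3′ v2) of leukocytes from the central nervous system of mice with experimental autoimmune encephalomyelitis (EAE), an induced inflammatory disease of the brain and spinal cord. All mice were on the B6 background, all were immunized with MOG35-55 peptide, and cells were taken at peak disease from animals with matching scores. LAG3-deficient mice (genotype label Lag3Floxed, library titles with lag3ko, here Lag3KO) were compared with Lag3wt mice (here WT), and the study's subject is LAG3-deficient regulatory T cells (Tregs). LAG3 is an inhibitory receptor of T cells. Magnetic beads enriched either CD4+ or CD45+ cells, which gave 2 WT_CD4, 2 Lag3KO_CD4, 2 WT_CD45 and 1 Lag3KO_CD45 libraries. The labels name 5 mice per group and do not say which mice went into which library, whether animals were pooled, or which Cre, if any, acted on the floxed allele.

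NK gene complex lectins are surface receptors of NK cells and of some T cells, together with several of their ligands, coded side by side. Ly49 receptors such as Klra7 (Ly49G2) and the CD94 (Klrd1) and NKG2A (Klrc1) pair inhibit killing when they bind MHC class I molecules, whereas NKG2D (Klrk1) activates on stress ligands. The Klrb1 receptors bind Clec2 proteins whose genes lie among their own: the inhibitory receptor Klrb1b binds Clec2d, and Klrb1f binds Clec2i.

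In the GRCm38 annotation the 10 genes lie between positions 128778485 and 130233322 of chromosome 6, a span of 1.45 Mb, and their start sites are 3.88 to 5.32 Mb from that of Lag3 (124904361 to 124911705, minus strand). Klrb1c (128778485 to 128789215) and Klrb1b (128813706 to 128826331) are on the minus strand, and Clec2i (128887588 to 128898167), Klrb1f (129045901 to 129057464) and Clec2d (129180615 to 129186534) on the plus strand. Klre1 (129577905 to 129585827) and Klrd1 (129591782 to 129598775) follow on the plus strand, then Klrk1 (129610323 to 129623864), Klrc1 (129666015 to 129678973) and, farthest from Lag3, Klra7 (130218605 to 130233322) on the minus strand. Counts of Klrc1 and Klra7 are uncertain, because 80.1% of the 50-base words in the last 300 bases of Klrc1 also occur in Klrc2 and 20.3% of those of Klra7 occur in Klra13-ps. The other 8 members share no such word with another gene.

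RefSeq promoters (GRCm38.p6) were matched by symbol for 9 of the 10 members. The 250 bases before the start site are printed for Klrb1b, Klrb1f and Clec2i, the members that stood lower in Lag3KO conventional T cells, and for Clec2d, which lies beside them and overlapped between genotypes. Capitals in Klrb1b and Klrb1f mark the longest run that the 2 sequences share, and capitals in Clec2i mark the GC box core on the opposite strand. No letters are capital in Clec2d, in which no searched motif was found.
Klrb1b, chr6:128826316-128826565, minus strand: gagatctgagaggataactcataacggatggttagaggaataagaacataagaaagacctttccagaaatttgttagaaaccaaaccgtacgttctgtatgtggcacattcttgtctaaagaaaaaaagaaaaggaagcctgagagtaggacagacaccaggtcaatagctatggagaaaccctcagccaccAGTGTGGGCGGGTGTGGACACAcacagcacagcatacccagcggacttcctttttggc
Klrb1f, chr6:129045651-129045900, plus strand: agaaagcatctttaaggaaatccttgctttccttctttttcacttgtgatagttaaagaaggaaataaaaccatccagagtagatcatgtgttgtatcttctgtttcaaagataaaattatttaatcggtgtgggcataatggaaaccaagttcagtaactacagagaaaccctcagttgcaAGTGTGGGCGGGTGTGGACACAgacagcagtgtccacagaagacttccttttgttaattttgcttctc
Clec2i, chr6:128887337-128887586, plus strand: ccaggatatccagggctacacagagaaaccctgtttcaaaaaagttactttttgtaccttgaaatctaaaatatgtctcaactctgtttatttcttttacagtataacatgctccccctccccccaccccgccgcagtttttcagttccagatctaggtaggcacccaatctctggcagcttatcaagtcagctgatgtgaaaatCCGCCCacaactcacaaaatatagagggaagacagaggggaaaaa
Clec2d, chr6:129180365-129180614, plus strand: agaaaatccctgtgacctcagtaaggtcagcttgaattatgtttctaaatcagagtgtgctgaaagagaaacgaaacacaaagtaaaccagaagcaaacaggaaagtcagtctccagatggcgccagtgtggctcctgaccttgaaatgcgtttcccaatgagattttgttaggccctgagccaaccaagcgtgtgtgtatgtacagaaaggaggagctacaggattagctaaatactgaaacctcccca

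The shared run of Klrb1b and Klrb1f was 22 bases long and began at position -58 of Klrb1b and -68 of Klrb1f, counted from the start site. It was the longest among the 36 pairs of members. The next longest run had 13 bases (Klrb1f with Clec2i), and the median was 8.0. Only 3 of 32851 promoters of this length held it on either strand, and these were the 2 promoters listed for Klrb1b and the one of Klrb1f. The run contains the GC box core GGGCGG and, overlapping it, the CACCC-type motif GGGTGTGG. On either strand these occur in 32.7% and 3.20% of all promoters, so a GC box alone, as in Clec2i, is common. The RUNX core TGTGGT (14.05% of all promoters) was found once each in Klrb1c, Klrk1, Klrc1 and Klre1, and the TATA box TATAAA (12.4%) in Klrc1 only. These motifs were picked with the expression values known, and a match describes letters in the window, not binding.

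The libraries held 1428 to 2517 barcodes and 4585251 to 18940186 unique molecular identifiers (UMIs, counted molecules), with medians of 2086.5 to 2599.5 UMIs per barcode after CD4 selection and 5680 to 6405 after CD45 selection. Of 13922 barcodes, 13411 were used, and 0 to 12 barcode sequences were shared between any 2 libraries. Lag3 itself, which checks the labels, stood at 50.02 and 23.3 counts per 1000000 UMIs (CPM) in the WT_CD4 libraries, 0.194 and 0 in the Lag3KO_CD4 libraries, 16.4 in WT_CD45 1 and 0.106 in Lag3KO_CD45 1. The library labelled WT_CD45 2 had 4 Lag3 UMIs (0.250 CPM), which goes against its label. CD45 values are therefore given library by library, and the differences described most closely also for WT_CD45 1 alone. Xist stood at 927 to 1016 CPM in the CD4 libraries and at 0 in the CD45 libraries, so sex, bead selection and file version cannot be told apart. Cell classes were rebuilt from clusters made without these genes, without other Klr and Clec genes and without chromosome 6 genes within 10 Mb of Lag3, and were named from marker genes. Barcodes with T and myeloid RNA together (2.64% to 5.13% of a CD4 library and 20.1% to 24.8% of a CD45 library) were set apart as likely doublets. Levels of the members are CPM within a class of 1 library. They come from 3′ ends and are compared between classes and libraries for 1 gene at a time. Because nothing says that libraries came from separate animals, p-values measure the spread between libraries only.

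Among the 11 classes with at least 20 cells in each of the 3 CD45 libraries, 7 of the 10 members were highest in the NK-like cluster, and for each of these the lowest NK value among the 3 libraries lay above the highest value of the next class. This cluster was led by Gzma, Ncr1 and Xcl1 besides members of the complex, and none of the 10 NK markers was at 0 in any library. Klrd1, which codes CD94, averaged 1139 ± 109 CPM (SD, n = 3) in NK-like cells, and CD8 T cells came next with 290 ± 85.5. Klre1, whose protein pairs with other lectins of the complex, averaged 1005 ± 143 in NK-like and 69.7 ± 15.01 in CD8 T cells. The values of Klrk1 were 764 ± 33.5 in NK-like cells and 123 ± 42.0 in CD8 T cells. Below these, CD8 T cells, type 1 dendritic cells (cDC1, 85.1 ± 13.8), migratory dendritic cells (82.6 ± 36.0) and Cd209a-positive dendritic cells (cDC2 or monocyte-derived, 75.6 ± 38.9) formed an unbroken order for Klrk1, in which neighbours overlapped between libraries. Gamma delta T cells (31, 15 and 53 cells) were too few to enter this order, and their Klrk1 stood at 144 and 90.5 CPM in WT_CD45 and 218 in Lag3KO_CD45 (15, 4 and 33 UMIs).

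Klra7 averaged 716 ± 328 CPM in NK-like cells against 28.5 ± 23.5 in CD8 T cells, and was at 0 in B cells, cDC1, migratory dendritic cells and Tregs. Klrb1c, which codes the NK1.1 antigen of B6 mice, averaged 316 ± 132 in NK-like cells, and conventional CD4 T cells came next with 12.6 ± 8.27. Klrb1f averaged 171 ± 52.1 in NK-like cells. Among the ordered classes neutrophils came second, at 16.7 ± 3.06 CPM, and stood apart from the class after them, the conventional T cells at 3.54 ± 3.23. Those neutrophil values rest on 24 UMIs, at median depths of 10753 to 12758.5 UMIs per cell. Neutrophils of the 4 CD4 libraries, at medians of 858 to 1200, held 0 Klrb1f UMIs. Gamma delta T cells, outside the order, stood at 28.8 and 0 CPM in WT_CD45 and 6.61 in Lag3KO_CD45 (3, 0 and 1 UMIs). Klrc1 averaged 119 ± 42.5 in NK-like cells, 51.9 ± 19.7 in CD8 T cells and 31.1 ± 12.5 in conventional T cells, and 3.17 ± 2.88 or less in the other 8 ordered classes. The lead of NK-like over CD8 T cells in Klrc1 was narrow. It rested on 7 NK-like UMIs of WT_CD45 1 against 8 CD8 T cell UMIs of Lag3KO_CD45 (70.2 CPM). CD8 T cells of the CD4 libraries were no lower in Klrc1 than these NK-like cells. Their Lag3KO mean was 127 ± 20.2 CPM (n = 2, 31 UMIs), and 20 cells of WT_CD4 1 gave 245 CPM (16 UMIs). Outside the order of the CD45 libraries, gamma delta T cells held 2, 1 and 5 Klrc1 UMIs (19.2, 22.6 and 33.1 CPM). Cycling T cells (17, 50 and 31 cells), also outside it, held 1, 9 and 7 UMIs of Klrc1, with the Lag3KO library last. In the same order they held 3, 8 and 0 UMIs of Klrb1f (19.0, 21.8 and 0 CPM) and 11, 38 and 0 of Klra7. Those Klra7 UMIs came from only 1, 4 and 0 cells.

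The remaining 3 members had no such NK peak. Klrb1b was at similar levels in cDC1 (54.1 ± 21.7 CPM), Cd209a-positive dendritic cells (53.2 ± 13.4) and NK-like cells (52.4 ± 65.0), where it ranged from 0 to 125 between libraries. Clec2i was highest in migratory dendritic cells (45.5 ± 5.31), followed by B cells (37.3 ± 17.1) and plasmacytoid dendritic cells (31.5 ± 9.77), with overlap at every step down to cDC1 (6.66 ± 4.98). Clec2d ranged from 94.2 ± 31.4 in migratory dendritic cells to 47.8 ± 21.4 in Tregs with every neighbour overlapping. Neutrophils had the lowest mean, 19.7 ± 4.93, but did not stand clearly apart. In WT_CD45 1 the Treg value, on 3 UMIs, lay just above the highest neutrophil value. NK-like cells of that library, on 2 UMIs, lay within the neutrophil range. Nor was the gene low in neutrophils after CD4 selection, where means were 71.3 ± 42.1 CPM for WT (14 UMIs) and 93.3 ± 7.21 for Lag3KO (17 UMIs).

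**Figure D1:**
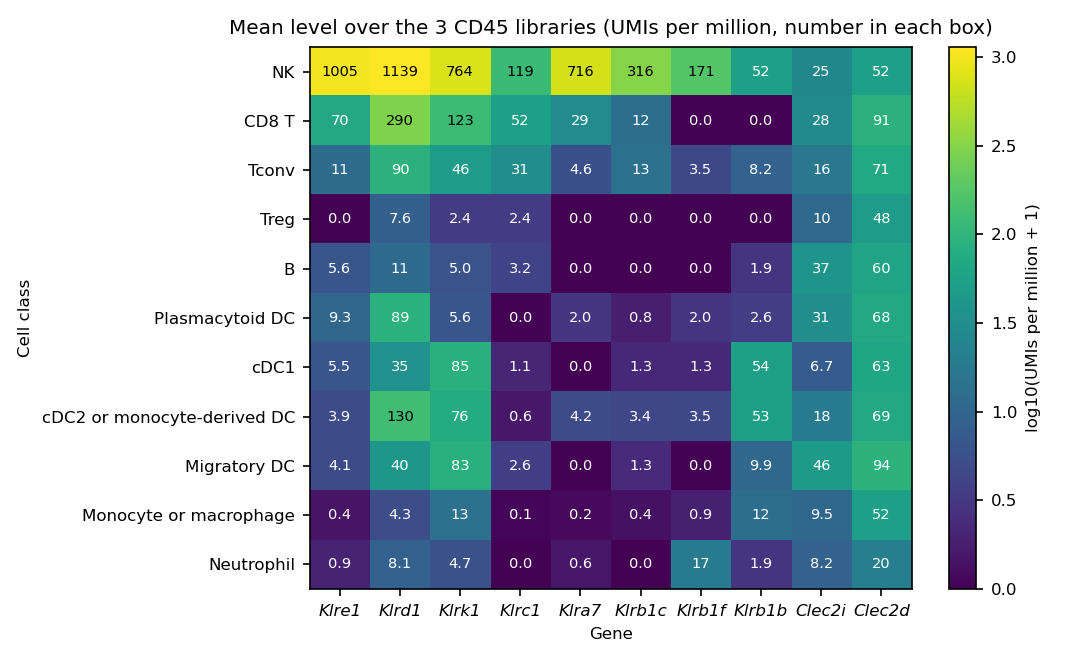
Mean level of each member in each cell class of the 3 CD45 libraries, in CPM of the class; rows are cell classes, columns are genes, the number in each box is that mean and the colour shows log10(CPM + 1). The NK row holds the highest value for 7 members, and Klrb1b, Clec2i and Clec2d are spread over several classes.

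Members also differed in which genes had the most similar pattern over the 37 library and class sums of the CD45 libraries, among 10573 genes (Pearson correlation of log2(CPM + 10), a description over sums that share libraries and depth). For most genes with an NK peak the closest 3 were NK or cytotoxic genes: Klra4 (r = 0.976), Eomes and Klre1 for Klra7, Klra4 (0.935), Ifitm10 and Eomes for Klre1, Klra9 (0.965), Klrb1a and Klra4 for Klrb1c, and Klra9 (0.857), Ncr1 and Klra4 for Klrb1f. Klrc1 was most like Klrc2 (0.967), a gene that shares sequence with it, then Xcl1 and Vps37b. The closest genes to Klrd1 were Klre1 (0.85), Xcl1 and Gzma, and those to Klrk1 were Runx3 (0.81), a transcription factor of cytotoxic lymphocytes, Id2 and Klrc1. Klrb1b was most like Sult1a1 (0.854), Olfm1 and Prr5l. The likeness was lower for Clec2i, with Rras2 (0.699), Eif4a2 and Foxp1, and for Clec2d, with Il21r (0.688), Bloc1s3 and Malat1.

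In conventional CD4 T cells of the CD4 libraries, the deepest class, 3 neighbouring members stood lower in both Lag3KO libraries than in both WT libraries, and the other members did not. Clec2i, the ligand of Klrb1f, was measured at 38.7 and 37.9 CPM (95 and 76 UMIs) in the WT_CD4 libraries against 4.88 and 11.7 (10 and 24 UMIs) with Lag3KO_CD4. The share of cells with a Clec2i UMI was 9.06% and 9.15% against 1.39% and 2.48%, at median depths of 2010, 2375, 2268 and 1902 UMIs per cell. Of the monocytes of the same libraries, at higher depth, 1 of 47, 0 of 32, 2 of 84 and 0 of 48 had a Clec2i UMI, and these few cells do not fix a background level, since their exact 95% upper limits reach 11.3%. The fitted log2 difference, Lag3KO minus WT, was -2.18 ± 0.35 (SE). Klrb1f gave 25 and 28 UMIs (10.2 and 13.97 CPM) in WT_CD4 and 1 and 5 UMIs (0.488 and 2.45 CPM) in Lag3KO_CD4, a log2 difference of -2.95 ± 0.57. Klrb1b gave 26 and 6 UMIs (10.6 and 2.99 CPM) against 2 and 1 UMIs (0.975 and 0.489 CPM), a log2 difference of -3.10 ± 0.89. Its WT libraries differed from each other, and without WT_CD4 1 the Klrb1b difference was -1.89. These 3 members and Klrb1c, which did not stand lower, are the 4 nearest to Lag3.

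Clec2d, in the next position, overlapped between genotypes in the same cells, with 63.1 and 76.8 CPM for WT_CD4 and 59.5 and 67.5 for Lag3KO_CD4. So did Klrd1 (75.8 and 87.8 against 86.8 and 49.9, log2 difference -0.24 ± 0.30), Klrk1 (54.2 and 42.9 against 52.2 and 39.1, -0.08 ± 0.29) and Klrc1 (38.3 and 41.9 against 41.0 and 19.1). Klrb1c and Klre1 stood higher in both Lag3KO_CD4 libraries, on few UMIs: 2.85 and 0.499 CPM against 3.41 and 4.402 for Klrb1c, and 1.22 and 0.499 against 3.90 and 2.44 for Klre1. Klra7 had at most 4 UMIs per CD4 library in this class and was not tested.

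Of the 9 members that passed the filter on low counts in conventional T cells, 3 were thus wholly below and 2 wholly above in Lag3KO_CD4, where 16.4% and 13.6% of all 9454 genes were. Within the CD4 libraries 0 of the 9 passed an adjusted p of 0.05 in edgeR's quasi-likelihood test, as did 0.0423% of all genes (4 of 9454). There 4 members were under an unadjusted p of 0.05, Klrb1b, Clec2i, Klrb1f and Klre1, and DESeq2 called none. The median log2 difference was -0.24 over the members tested and 0.00 over all genes tested. Over all 7 libraries with bead selection as a term, the log2 difference was -1.96 ± 0.35 for Clec2i, -3.02 ± 0.55 for Klrb1f and -2.52 ± 0.76 for Klrb1b, and leaving out the library labelled WT_CD45 2 gave -2.03 ± 0.32, -3.01 ± 0.57 and -2.70 ± 0.72. In the fit of all 7 edgeR and DESeq2 called 0 of 9454 genes (0.0%), and 318 genes, 3 members among them, were under an unadjusted p of 0.05 in edgeR. Without the filter on low counts edgeR called all 3 of these members lower, Clec2i, Klrb1f and Klrb1b, so whether they pass depends on that filter.

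Markers of other classes were summed in the same cells. Of the 10 NK markers, Ncr1 was at 0 in 3 of the 4 CD4 libraries and Cma1 in all 4, and the NK list, which holds genes that activated T cells also express, summed to 1364 and 938 CPM for WT_CD4 and 1674 and 1447 for Lag3KO_CD4, higher in both Lag3KO libraries. The list of Cd209a-positive dendritic cells summed to 2.44 to 5.85 CPM with Cd209a at 0 in 4 of 4 libraries. The list for CD8 T cells was highest in Lag3KO_CD4 2, at 5745 CPM against 2492 to 3398 in the other CD4 libraries. The part of these lists in the differences was not tested.

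The CD45 libraries gave few conventional T cells (126, 186 and 113), and, apart from Klrd1 and Clec2d, the values there overlapped or rested on few UMIs. Clec2i stood at 23.7 and 11.1 CPM in WT_CD45 (11 and 7 UMIs) and 11.8 in Lag3KO_CD45 (5 UMIs), a log2 difference of -0.46 ± 0.81 (-0.99 ± 0.83 without the library labelled WT_CD45 2). WT_CD45 1 was the highest, but the counting intervals of both ratios to it hold 1. These ratios were 0.467 (0.15 to 1.32) for the library labelled WT_CD45 2 and 0.50 (0.136 to 1.56) for Lag3KO_CD45. The counts therefore do not place the library labelled WT_CD45 2, low in Lag3, with either genotype. Klrb1f had 2, 4 and 0 UMIs and Klrb1b 7, 3 and 2 in the same order. Klre1, higher in Lag3KO_CD4, stood at 15.1 and 15.8 CPM in WT_CD45 and 2.37 in Lag3KO_CD45, the opposite order. Klrd1 stood at 142 and 66.4 against 61.6 CPM, Klrc1 at 45.2 and 26.9 against 21.3, Klrb1c at 8.62 and 22.1 against 7.11 and Clec2d at 68.9 and 93.25 against 52.1, each lowest in the Lag3KO library. Klrk1, at 66.8 and 22.1 against 49.8, overlapped. The share of all genes lowest in Lag3KO_CD45 is not given for this class, and with 1 Lag3KO library such an order is frequent. The counting interval of the Klrd1 ratio to the library labelled WT_CD45 2, 0.928 (0.546 to 1.55), holds 1. In the CD45 contrast of conventional T cells 0 of 9 members and 0 of 9454 genes (0.0%) were called by edgeR or DESeq2. Klre1 alone among the members was under an unadjusted p of 0.05 in edgeR, as were 555 genes in all.

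**Figure D2:**
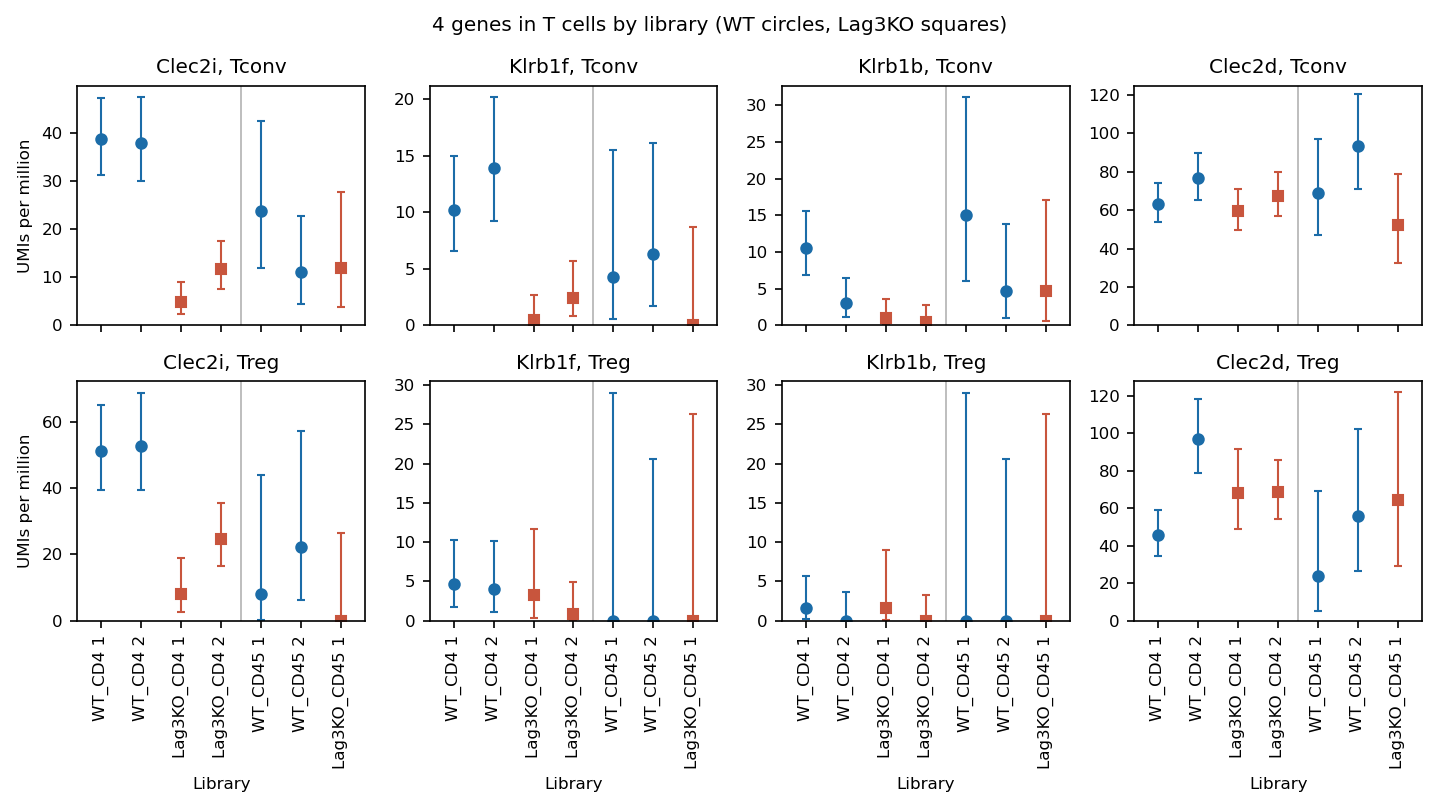
Levels of Clec2i, Klrb1f, Klrb1b and Clec2d in conventional T cells (Tconv) and Tregs of each library, in CPM of the class on linear axes that start at 0; circles are WT and squares Lag3KO libraries, and bars are exact 95% Poisson intervals that cover counting error only. Clec2i in both classes, and Klrb1f and Klrb1b in conventional T cells, stand lower in both Lag3KO_CD4 than in both WT_CD4 libraries, Clec2d overlaps, and Klrb1f and Klrb1b in Tregs rest on few UMIs.

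The same order of Clec2i was found in every cluster of these cells. In the CD4 libraries 8 clusters made up the conventional T cells and Tregs, and Clec2i was lower in both Lag3KO than in both WT libraries in 8 of 8. Klrb1f was so in 5 of 8 clusters and Klrb1b in 2 of the 5 in which it was detected. Clec2d, Klrd1 and Klrc1 were so in 2 of 8 each, Klrk1 in 1 of 8, and Klrb1c (7 clusters), Klre1 (5) and Klra7 (2) in none. The clusters are parts of the same libraries and not replicates, and the share of all genes in that order is not given by cluster. Some of these orders rest on few UMIs. The sparsest cluster so counted held 5 and 7 against 1 and 2 UMIs of Clec2i, and 2 and 2 against 0 and 0 of Klrb1f. Klrb1b was concentrated in the clusters led by Il17re and Cxcr6 (19.4 and 6.66 CPM in WT_CD4, 2.09 and 0 in Lag3KO_CD4) and by Ccl1, Csf2 and Il17a (21.8 and 6.49 against 1.16 and 0). In the conventional T cell clusters led by Gzmk and Ccl5 and by Ramp3 it was at 0 in all 4 libraries. Klrk1 was high in the Il17re and Cxcr6 cluster (96.9 and 71.9 against 60.7 and 103 CPM) and at 4.22 to 11.6 CPM in the Tcf7 and Ccr7 cluster.

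In Tregs, the study's cells of interest, Clec2i was the member with the widest gap between genotypes of the 4 tested. The WT_CD4 libraries had 65 and 53 UMIs of it (51.04 and 52.5 CPM) and the Lag3KO_CD4 libraries 5 and 28 (8.09 and 24.6 CPM), a log2 difference of -1.47 ± 0.33. Clec2i was detected in 12.6% and 15.2% of WT and 1.95% and 7.18% of Lag3KO Tregs, at median depths of 2266, 2836, 2213 and 2713 UMIs. The 2 Lag3KO libraries were far apart: the difference was -2.65 without Lag3KO_CD4 2 and -1.05 without Lag3KO_CD4 1. The CD45 libraries held 1, 4 and 0 Clec2i UMIs in 28, 51 and 35 Tregs, and a count of 0 in 35 cells allows a share of up to 8.57% of cells with a UMI. Clec2d overlapped between genotypes (45.5 and 97.2 CPM against 67.9 and 68.5), as did Klrd1 (25.1 and 21.8 against 48.5 and 17.6) and Klrk1 (24.3 and 22.8 against 29.1 and 14.1). The other 6 members did not pass the filter on low counts. Of these Klrc1 (15 and 9 UMIs against 5 and 5, or 11.8 and 8.92 against 8.09 and 4.39 CPM) and Klrb1f (6 and 4 UMIs against 2 and 1) were also lower in both Lag3KO_CD4 libraries, on few UMIs. Of the 4 that did, 1 lay wholly below and 0 wholly above in Lag3KO_CD4, as did 16.8% and 15.6% of 7362 genes. Neither edgeR nor DESeq2 called any of the 4, and Clec2i was under an unadjusted p of 0.05 in edgeR. In that edgeR fit 0.122% of all genes (9 of 7362) were called. The median log2 difference was -0.14 over the 4 and 0.00 over all genes tested. In the CD45 contrast of Tregs edgeR and DESeq2 called 0 of the 4 members, 0 were under an unadjusted p of 0.05 in edgeR, and 0.0136% of genes were called. Over all 7 libraries the Clec2i difference was -1.52 ± 0.33 (-1.49 ± 0.32 without the library labelled WT_CD45 2), and edgeR again called 0 of 4 members and 0.122% of genes. Clec2i alone did pass there without Lag3KO_CD4 2, with the filter left out, or with clusters made from all variable genes.

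Tregs split into 2 clusters in the CD4 libraries, and Klrd1 and Klrk1 were found mainly in one of them. In the cluster led by Tnfrsf9, Ikzf2 and Gzmb, Klrk1 stood at 39.5, 32.5, 39.5 and 19.9 CPM over WT_CD4 1 and 2 and Lag3KO_CD4 1 and 2, and Klrd1 at 39.5, 25.4, 59.3 and 22.4. In the cluster led by Ikzf2, Izumo1r and Tox, Klrk1 had 1, 0, 0 and 0 UMIs and Klrd1 2, 4, 3 and 2. The genotypes overlapped in the first, and in the second the counts are too low to compare.

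A cluster could be named NK-like in the CD45 libraries only, with 26 and 42 cells in WT_CD45 and 20 in Lag3KO_CD45, at median depths of 3576, 3304 and 3108 UMIs. Klra7 stood at 855 and 951 CPM in WT_CD45 (82 and 148 UMIs) and 342 in Lag3KO_CD45 (24 UMIs). Klra7 was detected in 61.5% of the cells of WT_CD45 1, in 61.9% of those of the library labelled WT_CD45 2 and in 4 of the 20 Lag3KO cells (exact 95% interval 5.73% to 43.7%), against at most 0.117% of monocytes. The ratio of the Lag3KO_CD45 level was 0.399 (exact 95% counting interval 0.242 to 0.636) against WT_CD45 1 and 0.359 (0.223 to 0.555) against WT_CD45 2, and the libraries labelled WT, of which the second lacks Lag3, differed from each other by a ratio of 1.11. UMIs of 1 cell are not independent here, since 24 UMIs came from 4 cells.

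Klrb1c was the second NK member that stood lower, at 448 and 315 CPM in WT_CD45 and 185 in Lag3KO_CD45 (43, 49 and 13 UMIs). Its ratio to WT_CD45 1 was 0.413 (0.203 to 0.782), and the interval of its ratio to WT_CD45 2, 0.588 (0.292 to 1.10), holds 1. Klrb1b stood in the same order, with 12, 5 and 0 UMIs. The other 5 tested members stood higher in Lag3KO_CD45, with counting intervals of the ratios that hold 1: Klrd1 at 1022 and 1156 against 1238 CPM, Klre1 at 897 and 951 against 1167, Klrk1 at 730 and 764 against 797, Klrc1 at 73.0 and 128 against 157 and Klrb1f at 125 and 161 against 228. The widest of these ratios to WT_CD45 1 were 2.14 for Klrc1 (0.759 to 6.52) and 1.82 for Klrb1f (0.808 to 4.21). Klrb1f was thus low in Lag3KO conventional T cells of the CD4 libraries and not in Lag3KO NK-like cells of the CD45 libraries, with a log2 difference there of 0.57 ± 0.42. The difference between those classes was not tested. Clec2i and Clec2d had 9 and 18 UMIs in all NK-like cells.

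The fitted log2 differences in NK-like cells were -1.47 ± 0.28 for Klra7, -1.07 ± 0.39 for Klrb1c, 0.11 ± 0.22 for Klrd1 and 0.02 ± 0.24 for Klrk1. With a single Lag3KO library, only the 2 libraries labelled WT, of which the second is low in Lag3, show any spread between libraries of 1 group. Against WT_CD45 1 alone the differences were -1.32 for Klra7 and -1.28 for Klrb1c. Of the 8 members tested 3 were wholly below and 5 wholly above in Lag3KO_CD45, as were 30.7% and 41.7% of 1477 genes, a frequent outcome with 1 library. None of the 8 was called by edgeR or DESeq2, nor was any of the 1477 genes (0.0%), and edgeR put 80 genes and 2 members, Klra7 and Klrb1c, under an unadjusted p of 0.05. The NK marker list summed to 11387, 15371 and 12978 CPM, with the Lag3KO library between the WT libraries.

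**Figure D3:**
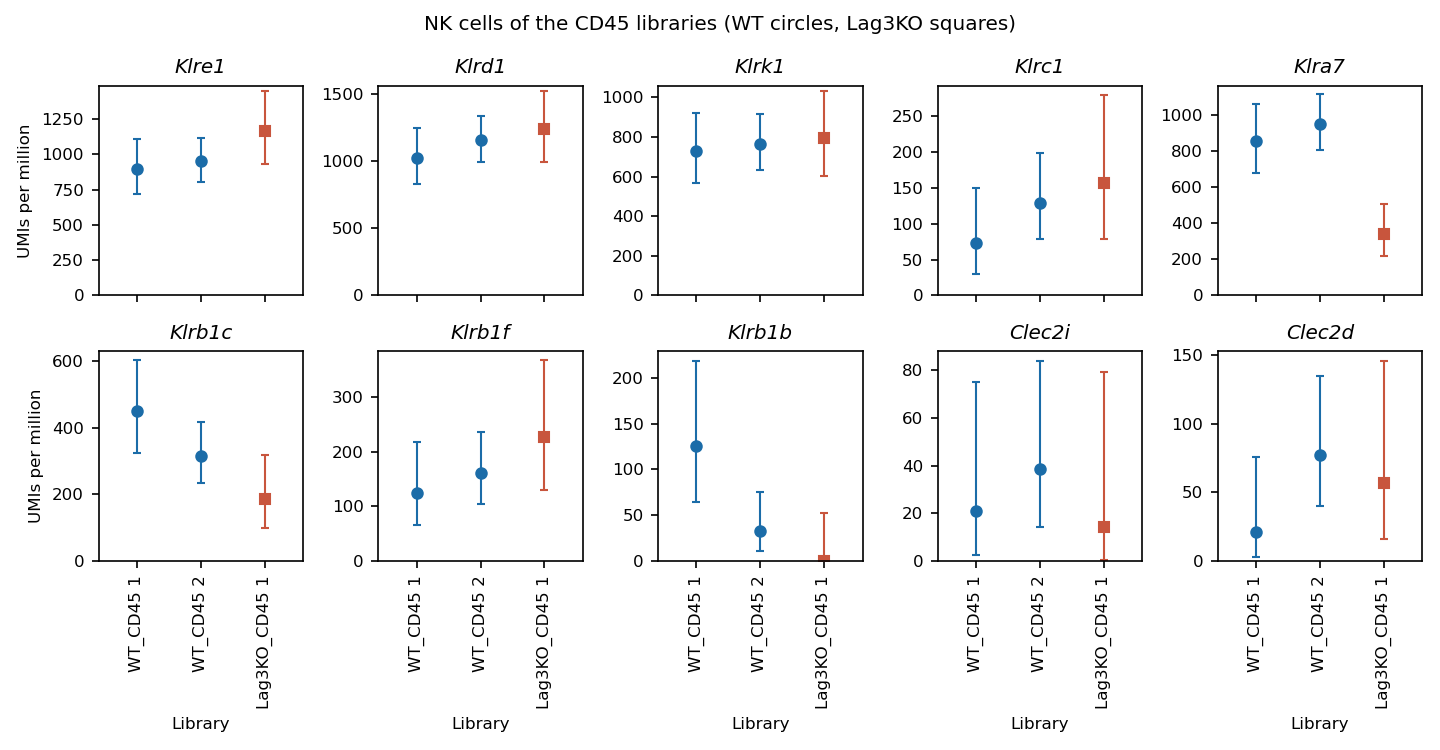
Levels of the 10 members in NK-like cells of the 3 CD45 libraries, in CPM on linear axes that start at 0, with exact 95% Poisson intervals that cover counting error only; circles are WT and the square is Lag3KO. Klra7 in Lag3KO_CD45 (342) lies below WT_CD45 1 (855) and the library labelled WT_CD45 2 (951), and Klrd1, Klre1 and Klrk1 are close in all 3.

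Receptor pairs were counted in the same cells. Klrd1 and Klrk1 were detected together in 69.2%, 73.8% and 85.0% of NK-like cells of WT_CD45 1, WT_CD45 2 and Lag3KO_CD45, and in at most 0.933% of monocytes, which were deeper (medians of 5194 to 6065 UMIs). After each cell was thinned to 2000 UMIs, with 0 NK-like cells left out, those shares were 53.8%, 57.1% and 70.0%. The CD94 and NKG2A pair, Klrd1 with Klrc1, was detected together in 3 of 26, 7 of 42 and 6 of 20 cells, and in 11.5%, 11.9% and 10.0% after thinning, so its order did not hold at equal depth. Klre1 and Klrk1 were together in 84.6%, 78.6% and 85.0%. The exact 95% intervals of the 3 libraries overlapped for every pair.

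Type 1, Cd209a-positive and migratory dendritic cells carried Klrd1 and Klrk1 at higher levels than monocytes in every CD45 library, and in 2 of the 4 dendritic classes Klrd1 stood lowest in the Lag3KO library. In Cd209a-positive dendritic cells Klrd1 stood at 202 and 109 CPM in WT_CD45 (240 and 115 UMIs) and 77.6 in Lag3KO_CD45 (69 UMIs). The ratio of Lag3KO_CD45 to WT_CD45 1 was 0.383 (exact 95% counting interval 0.289 to 0.503) and to WT_CD45 2 0.709 (0.518 to 0.964). The WT libraries themselves differed by a ratio of 0.541, which is more than the second of these. The fitted log2 difference of Klrd1 was -1.08 ± 0.28 (-1.38 against WT_CD45 1 alone). Klrd1 was detected in 43.5%, 31.2% and 23.2% of these cells and in 30 of 857, 14 of 752 and 8 of 855 monocytes, in the order WT_CD45 1, WT_CD45 2 and Lag3KO_CD45. Klrk1 stood at 121 and 52.3 against 54.0 CPM in these cells, so the library labelled WT_CD45 2 matched the Lag3KO library, and the log2 difference was -1.16 against WT_CD45 1 and 0.04 against WT_CD45 2. Klrb1b stood at 68.3 and 48.5 against 42.7 CPM. Of the 5 members tested 3 (Klrd1, Klrb1b and Clec2d) were wholly below and 0 wholly above in Lag3KO_CD45, as were 31.7% and 39.7% of genes. In this class edgeR and DESeq2 called 0 of 5 members, with Klrd1, Klrk1 and Clec2d under an unadjusted p of 0.05 in edgeR, while edgeR called 0.634% of 7259 genes and DESeq2 0. The summed T cell list was 37.1, 41.9 and 40.5 CPM and the NK list 74.2, 28.5 and 42.7 in the order WT_CD45 1, WT_CD45 2 and Lag3KO_CD45. The NK list was thus also highest in WT_CD45 1, and its part in the order of Klrd1 was not tested.

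In migratory dendritic cells Klrd1 was lowest in the single Lag3KO library, and edgeR called it, the single call of a member in any class, which DESeq2 and another clustering did not give. It stood at 72.4 and 34.4 CPM in WT_CD45 (47 and 14 UMIs) and 13.1 in Lag3KO_CD45 (10 UMIs), a log2 difference of -2.15 ± 0.47 (-2.46 against WT_CD45 1 alone). The ratio was 0.182 (0.0818 to 0.364) against WT_CD45 1 and 0.383 (0.152 to 0.926) against WT_CD45 2, and the ratio between the WT libraries was 0.475. In this class 1 of 5 members was called, beside 1.08% of 6199 genes, and DESeq2 called neither Klrd1 nor any other gene. With clusters made from all variable genes edgeR did not call it either. Wholly below in Lag3KO_CD45 were 2 of the 5 members, Klrd1 and Clec2d, and 0 were wholly above, as were 27.0% and 39.3% of genes. Klrk1 in the same cells stood at 116 and 44.2 against 88.1 CPM, with overlap. Ncr1, Prf1 and Cma1 were at 0 in all 3 libraries there, and the NK list summed to 136, 85.9 and 135 CPM. The T cell list (202, 162 and 355) and the monocyte list (5332, 6750 and 11632) were highest in the Lag3KO library, and their part in the result was not tested.

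Monocytes or macrophages held little of these receptors. Klrd1 stood at 7.08 and 3.70 CPM in WT_CD45 and 2.15 in Lag3KO_CD45, and Klrk1 at 16.9 and 14.2 against 8.98, with log2 differences of -1.36 ± 0.57 and -0.81 ± 0.25 (-1.72 and -0.91 against WT_CD45 1 alone). Of the 5 members tested 3 (Klrd1, Klrk1 and Clec2d) were wholly below and 0 wholly above in Lag3KO_CD45, as were 32.1% and 34.7% of genes. No member was called there by edgeR or DESeq2, nor was any of 10240 genes (0.0%; 379 genes in edgeR under an unadjusted p of 0.05, Klrd1 and Klrk1 among them). Neither CD8 T cells (4 members tested), B cells (2), plasmacytoid dendritic cells (3), cDC1 (4) nor neutrophils (2) had a member called by edgeR or DESeq2, or under an unadjusted p of 0.05 in edgeR. In those classes edgeR called 0.523%, 0.0%, 0.0%, 0.0589% and 0.422% of genes. In CD8 T cells 1 member (Clec2d) was wholly below and 1 (Klrd1) wholly above in Lag3KO_CD45, beside 32.4% and 39.3% of genes. Plasmacytoid dendritic cells had the same 2 members in the same places, beside 28.4% and 38.0%. The B cells had 1 member, Clec2i, wholly below and 0 above (29.9% and 35.1% of genes), and cDC1 had Klrb1b below and 0 above (29.7% and 37.0%), at 79.1 and 43.6 against 39.7 CPM. In neutrophils Clec2d was below and Klrb1f above, beside 32.1% and 33.5% of genes.

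The library values behind these counts follow in the order WT_CD45 1, the library labelled WT_CD45 2 and Lag3KO_CD45, all in CPM. In CD8 T cells Klrd1 stood at 195, 316 and 360, Klrk1 at 171, 93.4 and 105, Klre1 at 54.5, 84.5 and 70.2, Klrc1 at 54.5, 31.1 and 70.2 and Clec2d at 132, 89.0 and 52.6. For Klrd1 there the library labelled WT_CD45 2 was nearer to the Lag3KO library than to WT_CD45 1. Plasmacytoid dendritic cells had Klrd1 at 85.0, 77.4 and 103 and Clec2d at 66.8, 77.4 and 60.97. In cDC1 Klrk1 stood at 98.0, 70.6 and 86.8, Klrd1 at 46.4, 24.9 and 32.2 and Clec2d at 55.02, 70.6 and 62.02. Klrk1, Klrd1 and Clec2d thus overlapped between genotypes in cDC1. Clec2d stood at 71.7, 85.6 and 50.6 in Cd209a-positive dendritic cells, 80.1, 130.1 and 72.3 in migratory dendritic cells, 45.1, 69.7 and 65.9 in B cells, 51.1, 59.03 and 46.4 in monocytes and 21.6, 23.5 and 14.15 in neutrophils. It was lowest in Lag3KO_CD45 in each of these but B cells. Klrb1f in neutrophils stood at 16.6, 13.7 and 19.8. Monocytes held Klrb1b at 14.3, 7.62 and 12.9 and Clec2i at 7.596, 11.5 and 9.37, both with overlap. In Tregs of the CD45 libraries only Clec2d reached 20 UMIs, at 23.6, 55.7 and 64.2.

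**Figure D4:**
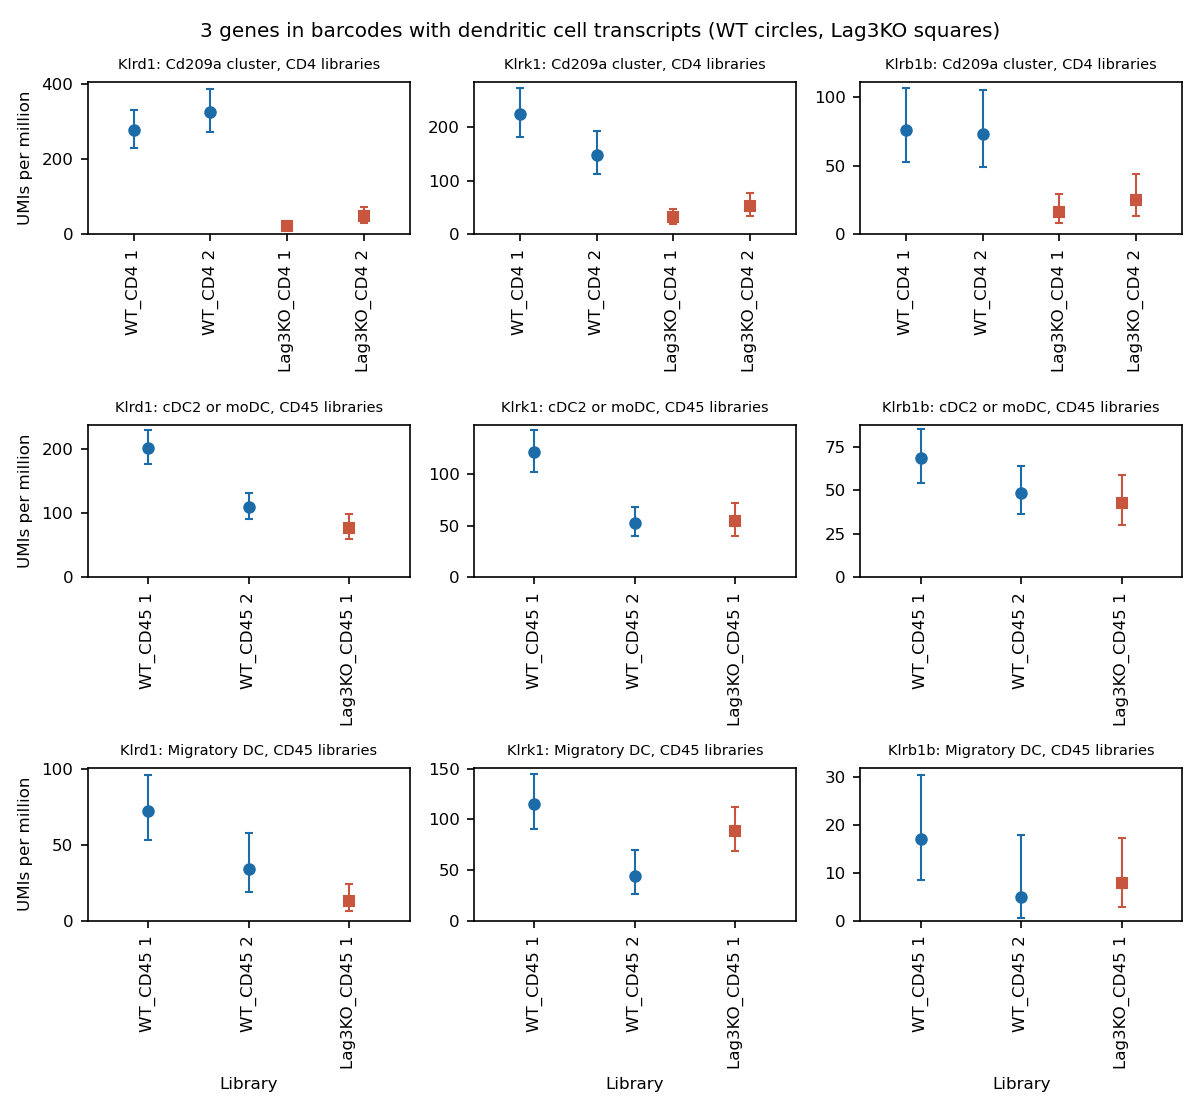
Levels of Klrd1, Klrk1 and Klrb1b in the Cd209a-led cluster of the CD4 libraries and in Cd209a-positive (cDC2 or moDC) and migratory dendritic cells of the CD45 libraries, in CPM on linear axes that start at 0, with exact 95% Poisson intervals (counting error only); circles are WT and squares Lag3KO. In the CD4 cluster all 3 genes are lower in both Lag3KO than in both WT libraries, and in both CD45 classes WT_CD45 1 is the highest.

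The CD4 libraries also held Cd209a-led barcodes, whose values are a description and no independent evidence. A cluster of 267 barcodes (64 and 56 in WT_CD4, 81 and 66 in Lag3KO_CD4) was led by Ccl17, Cd209a and H2-Eb1 together with T cell genes. It was left unnamed, because 53.6% to 63.0% of its barcodes held T and myeloid RNA together, and it was looked at after its values had been seen, so no test is given. Klrd1 had 123 and 129 UMIs (276 and 326 CPM) in WT_CD4 and 14 and 23 UMIs (20.9 and 48.3 CPM) in Lag3KO_CD4. Klrk1 stood at 225 and 149 against 31.4 and 52.5, Klrb1b at 76.4 and 73.3 against 16.4 and 25.2, and Clec2i at 24.7 and 43.0 against 2.99 and 12.6. Both Lag3KO libraries were below both WT libraries for each of these 4 genes. The share of all genes in that order is not given for this cluster. Klre1 stood in the same order on few UMIs, 2 and 4 in WT_CD4 against 0 and 1 in Lag3KO_CD4. Clec2d was also lower, by less, at 51.7 and 68.2 against 41.8 and 42.0. Cd209a itself overlapped (404 and 281 against 215 and 330), as did the summed T cell markers (1988 and 1903 against 2198 and 1567) and the markers of Cd209a-positive dendritic cells (1274 and 1001 against 778 and 1365). Not all markers did: Ccl17 was higher in both Lag3KO libraries (598 and 968 against 1228 and 1325 CPM). Itgax was lower in both (40.4 and 37.9 against 17.9 and 23.1 CPM, on 18, 15, 12 and 11 UMIs). The part of such marker differences in the order of the members was not tested. Ncr1 was at 0 in all 4 libraries. In conventional T cells of the same libraries, Klrd1 and Klrk1 overlapped between genotypes.

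The order of the genotypes therefore differed between cell classes and between members that lie side by side. In the CD4 libraries Clec2i was low in Lag3KO in conventional T cells, in Tregs and in the Cd209a-led cluster. Klrd1 and Klrk1 were low in that cluster, which was left unnamed and looked at after its values had been seen. They overlapped in conventional T cells and Tregs, and Klrb1c was not low in conventional T cells. In the CD45 libraries Clec2i was wholly below in Lag3KO_CD45 in B cells (56.4 and 32.2 against 23.3 CPM). That order rests on 10, 6 and 6 UMIs, and the counting intervals of its ratios to both WT libraries hold 1. Clec2i overlapped in 3 dendritic classes, with log2 differences of -0.15 ± 0.38 in migratory dendritic cells (41.6 and 51.6 against 43.4 CPM) and -0.18 ± 0.46 in Cd209a-positive dendritic cells (21.1 and 15.2 against 16.9). The third were plasmacytoid dendritic cells, at 42.5 and 23.8 against 28.1 CPM. In cDC1 it was wholly above, on 2, 2 and 5 UMIs, and was not tested. Klra7 and Klrb1c stood low in NK-like cells. No test of 1 class against another was made for these genotype differences.

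Genes near the members were compared in the same fits to see whether differences were denser near Lag3. In conventional T cells of the CD4 libraries, 13.9% of genes whose start is under 5 Mb from that of Lag3 (10 of 72) were under an unadjusted p of 0.05, against 0% from 5 to 10 Mb and 2.66% on other chromosomes. Without the members and Lag3 the nearest share was 8.06%. In Tregs of the CD4 libraries the shares were 11.1% (6 of 54), 0% and 3.73%, and 8.16% under 5 Mb without the members and Lag3. In the CD45 libraries the nearest bin was not higher: 4.17% against 5.92% on other chromosomes in conventional T cells and 3.70% against 5.87% in Tregs. In NK-like cells 3 of 25 genes under 5 Mb and 3 of 8 from 5 to 10 Mb (37.5%) were so, against 5.21% on other chromosomes, and the median absolute log2 difference under 5 Mb was 0.850 against 0.346 on other chromosomes. These shares rest on few genes and on the contrasts by which members were chosen. The NK-like values include the members, Klrb1c (3.88 Mb) and Klra7 (5.32 Mb) among them, and are not given without them.

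**Figure D5:**
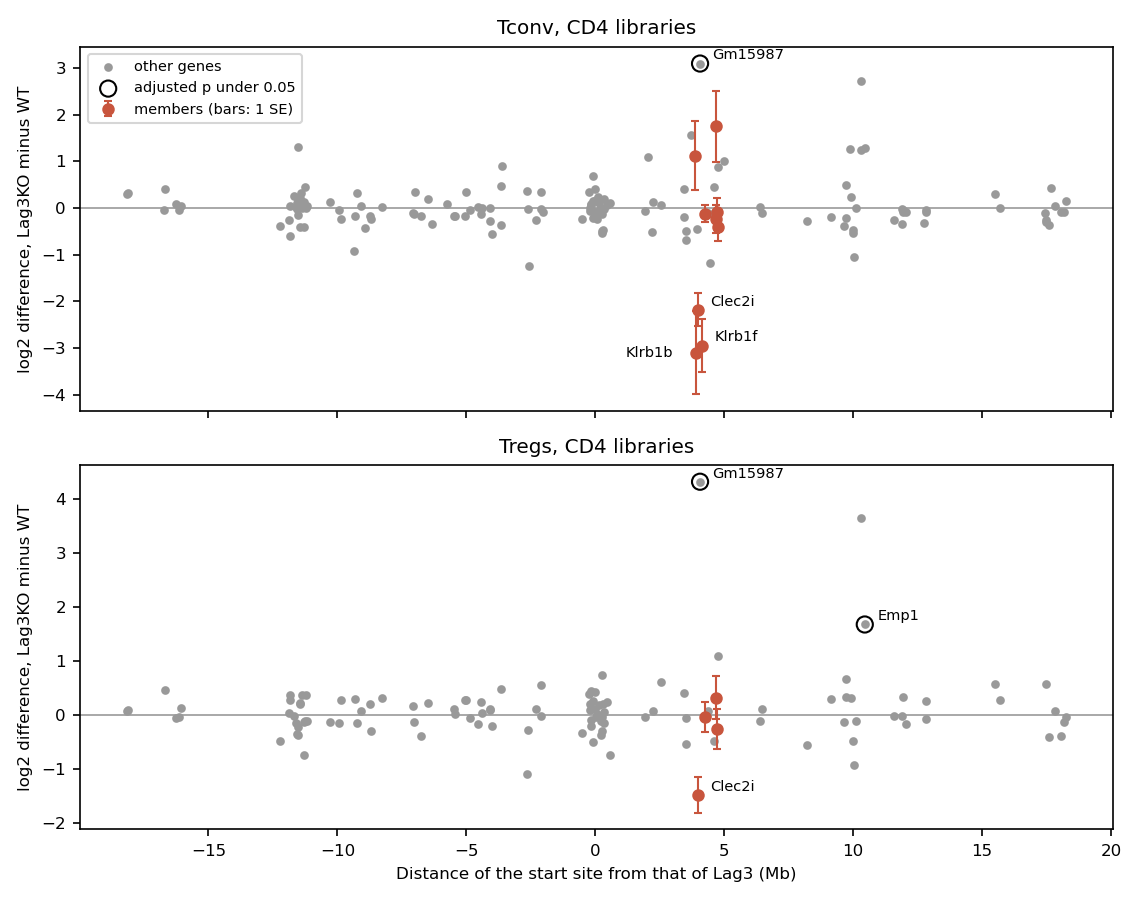
Log2 difference, Lag3KO minus WT, of chromosome 6 genes against the distance of their start from that of Lag3 in Mb, for conventional T cells and Tregs of the CD4 libraries; members are coloured with bars of 1 SE, and an open circle marks an adjusted p under 0.05 in edgeR. Clec2i in both panels, and Klrb1f and Klrb1b in conventional T cells, lie far below 0 and Gm15987 above 0, all 3.91 to 4.13 Mb from Lag3.

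Among the genes near the members edgeR called Gm15987 and, in Tregs, Emp1, which codes a membrane protein and starts 10.5 Mb from Lag3. Gm15987 is an antisense transcript within Clec2g, between Clec2i and Klrb1f (128951204 to 128975029, minus strand). Both were singled out after their values were seen. In conventional T cells Gm15987 had 9 and 5 UMIs (3.67 and 2.49 CPM) in WT_CD4 and 49 and 62 UMIs (23.9 and 30.3 CPM) in Lag3KO_CD4, a log2 difference of 3.09 ± 0.40 (adjusted p = 0.0173). In Tregs it stood at 1.57 and 0.991 CPM against 34.0 and 27.2, a difference of 4.32 ± 0.55 (adjusted p = 0.000292). Yet both WT_CD45 libraries were as high as the Lag3KO libraries, at 21.5 and 50.6 CPM in conventional T cells against 30.8 in Lag3KO_CD45, and 31.5 and 33.4 against 21.4 in Tregs (4, 6 and 3 UMIs). Low values were thus found in the WT_CD4 libraries alone, and those of WT_CD45 1, which has Lag3, were not low. The CD4 contrast exceeded the CD45 contrast by 3.35 ± 0.66 in conventional T cells and 4.94 ± 1.06 in Tregs, with edgeR adjusted p of 0.695 and 0.223. The call in conventional T cells was lost without WT_CD4 1, WT_CD4 2, Lag3KO_CD4 2 or WT_CD45 1 (log2 differences of 2.87 to 3.39), and that in Tregs without Lag3KO_CD4 2 (4.47). Over all 7 libraries edgeR did not call Gm15987, with differences of 1.72 ± 0.49 in conventional T cells (adjusted p = 1.00) and 2.53 ± 0.55 in Tregs (adjusted p = 0.0598). For Emp1 the difference in Tregs was 1.68 ± 0.27 within the CD4 libraries (edgeR adjusted p = 0.00519) and 1.499 ± 0.261 over all 7 (adjusted p = 0.00882). In the CD45 contrast of Tregs the Emp1 difference was 0.33. In conventional T cells it was 1.28 within the CD4 libraries and of the opposite sign, -0.72, in the CD45 contrast. Whether the counting used strand is not given in the sources used here, so reads of Gm15987 and Clec2g cannot be told apart for certain, and Clec2g had at most 3 UMIs per library in these cells.

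The listed other genes of the complex and the partners of these receptors were not called by edgeR in any class. Of 35 other NK complex genes, 31 are listed in all libraries, and 0 of the 8 tested in conventional T cells and 0 of the 5 tested in Tregs passed in the CD4 libraries, with 1 in each under an unadjusted p of 0.05 (Klrc2 and Klrg1). In NK-like cells 8 of the 9 tested were on the lower side in Lag3KO_CD45, with a median log2 difference of -0.91 beside -0.02 over all genes. None passed, and Klra4 and Klra1, both Ly49 genes like Klra7, were under an unadjusted p of 0.05. Of 19 ligand, adaptor and signal genes of these receptors, 0 of the 13 tested passed in conventional T cells or Tregs of the CD4 libraries, with medians of 0.05 and 0.04, and in Tregs Fcer1g and Tyrobp were under an unadjusted p of 0.05. In NK-like cells 0 of 11 passed, with a median of -0.30, and Ptpn6 and Tyrobp, which code a phosphatase and an adaptor of these receptors, were under an unadjusted p of 0.05.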

How the data were processed

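The deposited files hold raw UMI counts per gene and barcode, which the authors made with Cell Ranger, per the submitters' processing notes (GRCm38/mm10; Seurat is also named); version 3.0.2 stands only in the headers of the CD4 files, per the file headers. Aligner settings and strand use: not given in the sources used here. Barcodes with under 200 genes or over 10% mitochondrial UMIs were left out. Each bead selection was clustered separately (scanpy 1.11.5, Leiden resolution 1.0, 2000 variable genes, 30 principal components, 15 neighbours) without 361 genes: the members, other Klr and Clec genes and chromosome 6 genes within 10 Mb of Lag3. Clusters were named from markers. Barcodes with both at least 5 T cell UMIs per 10000 (at least 2) and at least 150 myeloid UMIs per 10000 were treated as doublets. Before that, each library's barcodes were scored by the share of simulated doublets among their neighbours, and the highest-scoring 0.8% per 1000 barcodes (15 to 51 per library) were removed. UMIs were summed per library and class (at least 20 cells) and fitted over all genes with edgeR 4.0.16 (quasi-likelihood, TMM, filterByExpr, two-sided, Benjamini-Hochberg, threshold 0.05). Tregs and conventional T cells were fitted over 7 libraries, with bead selection as a term or with the 4 groups, and the other classes over the 3 CD45 libraries. Intervals are exact (Clopper-Pearson for shares, Poisson for counts, 95%), and they and the floor of 3 counts cover counting error only.

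Every member is accounted for, and one is described by library where a class holds at least 20 UMIs over the fitted libraries (lower counts only where a comparison needs them); the 3 genes of highest correlation with a member are named. The members and lists were chosen with earlier results of these data known. Alternatives were DESeq2 1.42.0, RLE normalization, no filter, mixed barcodes kept, clusters from all variable genes, each library left out, each bead selection alone, and thinning to 2000 UMIs. The fit was tested on simulated counts with known changes. For conventional T cells over both selections (9481 genes), 45.1% of 2-fold and 95.9% of 4-fold changes were found. In NK-like cells (1607 genes), 14.3% and 59.6% were found. No per-sample column was left unused.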

Additional observations from a re-analysis of the deposited data

How the results depend on the processing

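Of 20 member (or Gm15987) and comparison pairs whose log2 differences were recomputed under 185 alternatives, 163 kept direction and side of the threshold, 14 newly passed it, 7 no longer passed and 1 changed sign: Klrk1 in Cd209a-positive dendritic cells without WT_CD45 replicate 1 (0.0446, against -1.16 without replicate 2). Without the filter on low counts, edgeR called 3 members in conventional T cells (both over both selections and within CD4) and 1 in Tregs (in both fits), NK-like cells and Cd209a-positive dendritic cells, in place of 0. The counts of all genes called also changed without it, from 0 to 57 in conventional T cells over both selections (19 with only the CD45 libraries), 4 to 49 within CD4, 9 to 25 and 9 to 29 in Tregs over both and within CD4 (4 genes with either selection alone), 0 to 12 in NK-like cells, 46 to 80 in Cd209a-positive dendritic cells, 0 to 127 in monocytes, 10 to 1 in CD8 T cells, 3 to 9 in cDC1, 25 to 2 in neutrophils and, within CD45, 0 to 21 in conventional T cells and 1 to 6 in Tregs. With clusters from all variable genes 1 member was called in Tregs over both selections, NK-like cells and Cd209a-positive dendritic cells and 0 in migratory dendritic cells, and all-gene counts were 27 in NK-like cells, 89 in Cd209a-positive dendritic cells, 28 in cDC1, 17 in CD8 T cells, 19 in B cells and 0 in Tregs within CD45. DESeq2 called 0 members in migratory dendritic cells (1 in edgeR) and 0 genes in the dendritic and CD8 T fits with over 5 edgeR calls. Its all-gene counts were 5 in either Treg fit, 1 in cDC1 and 1 in neutrophils, against 9, 3 and 25. RLE normalization gave 28 genes in Cd209a-positive dendritic cells, 6 in cDC1 and 4 in B cells. Leaving out 1 library at a time gave 0 to 1 members called in Tregs over both selections, where all-gene counts were 2 to 11 (4 to 9 within CD4), and 0 to 4 and 1 to 6 genes in conventional T cells over both selections and within CD4. Clec2i in migratory dendritic cells averaged 34.8 CPM with mixed barcodes kept and 59.8 with clusters from all variable genes. Thinned, Klrd1 with Klrk1 in WT_CD45 2 was 57.1% and Klrd1 with Klrc1 in Lag3KO_CD45 10.0%. The causes were not tested. No paired analysis was possible because the library titles give the groups no shared replicate numbers. Depth limits the NK-like class (70275 to 155681 UMIs) and the CD45 T cells most, and each CD45 contrast has 1 Lag3KO library.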
